A study of Mus musculus with 15 samples.

Results

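The enzymes examined here carry glucose through glycolysis to pyruvate and lactate in the mouse hippocampus. The set holds 10 genes, namely Hk1, Pfkm, Pfkp, Aldoa, Gapdh, Pgk1, Eno2, Pkm, Ldha and Ldhb, out of 16401 genes measured. They were chosen by symbol, taking every array feature that the platform annotation gives to one of them. A feature is a spot that carries 1 probe. The annotation lists 32 features for the 10 genes and 30 had values, with 1 feature of Hk1 and 1 of Aldoa empty on every array.

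Whole hippocampus of adult female mice was profiled as total RNA on 1-colour (Cy3) arrays, 1 array per biological replicate and 5 per group. The exercised SAMP8 group and the sedentary SAMP8 group are both of the senescence-accelerated line SAMP8, and the sedentary SAMR1 group is of the senescence-resistant line SAMR1. SAMR1 is a line of its own and not a littermate control, so a difference between the lines is one of their whole genetic backgrounds. The labels give no exercised SAMR1 group, no kind or length of exercise and no age beyond adult. Values are deposited intensities on a linear scale, compared on the log2 scale, and n = 5 arrays per group throughout.

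In glycolysis, hexokinase traps glucose in the cell as glucose phosphate, phosphofructokinase commits it to breakdown, and aldolase splits the sugar into smaller phosphates. Glyceraldehyde phosphate dehydrogenase, phosphoglycerate kinase, enolase and pyruvate kinase then yield ATP, NADH and pyruvate. Lactate dehydrogenase converts pyruvate and lactate into each other, with the LDHA subunit typical of cells that release lactate and the LDHB subunit of cells that burn it. In brain, astrocytes are known to export lactate through monocarboxylate transporters and neurons to take it up, and hypoxia-inducible factors raise many of these enzymes by binding the core motif ACGTG in their promoters.

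To show that motif, 3 promoter windows of 300 bases around the gene's start are given (RefSeq, build GRCm38.p6, strand of the gene). Ldha had the most matches of the 10 genes and its partner Ldhb none, and Pgk1 is a textbook target of these factors. Capitals mark ACGTG or its reverse complement CACGT, which overlap in CACGTG.
Ldha, chr7:46845554-46845853, plus strand: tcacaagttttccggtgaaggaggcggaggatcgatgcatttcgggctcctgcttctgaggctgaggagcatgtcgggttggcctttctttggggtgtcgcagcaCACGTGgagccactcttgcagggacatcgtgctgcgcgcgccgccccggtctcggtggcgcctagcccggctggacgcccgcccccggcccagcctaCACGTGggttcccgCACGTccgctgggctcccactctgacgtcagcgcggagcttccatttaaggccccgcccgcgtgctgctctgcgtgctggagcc
Pgk1, chrX:106186850-106187149, plus strand: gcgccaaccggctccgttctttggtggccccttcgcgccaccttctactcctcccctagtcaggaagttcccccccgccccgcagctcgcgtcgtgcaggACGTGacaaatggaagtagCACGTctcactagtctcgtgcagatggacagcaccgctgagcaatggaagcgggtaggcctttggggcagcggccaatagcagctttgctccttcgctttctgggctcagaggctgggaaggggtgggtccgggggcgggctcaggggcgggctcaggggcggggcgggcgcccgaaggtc
Ldhb, chr6:142507908-142508207, minus strand: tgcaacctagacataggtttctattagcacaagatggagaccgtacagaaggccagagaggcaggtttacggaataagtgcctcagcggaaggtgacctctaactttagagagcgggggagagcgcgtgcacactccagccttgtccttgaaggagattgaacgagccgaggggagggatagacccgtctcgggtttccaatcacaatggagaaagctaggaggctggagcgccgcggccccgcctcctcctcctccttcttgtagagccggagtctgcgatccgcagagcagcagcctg
The Ldha window printed here held 5 matches in 3 stretches and the Pgk1 window 2 matches, while these letters were not in the Ldhb window. A second Ldha window, not printed, held 0 matches. All 10 genes matched the RefSeq table, with 18 windows in all, of which 9 held the motif, in 7 of the 10 genes. Of 32851 mouse windows of the same kind, 19.6% held it. A match is a description of the letters and not a bound site.

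The deposited values were matched in overall level, with a median intensity between 207.75 and 208.67 on each of the 15 arrays. Quantile normalization is read from the values, so the like medians do not show how the arrays compared before it. Hippocampal excitatory neuron markers were above the median gene in 10 of 10 cases, and markers of the neighbouring striatum in 0 of 5. Thalamus markers were above it in 3 of 6 cases, choroid plexus markers in 5 of 9, and markers of meninges and fibroblasts in 8 of 10. The summed intensity of those striatal markers ran from 801 to 1099 in exercised SAMP8, from 767 to 884 in sedentary SAMP8 and from 785 to 938 on 4 SAMR1 arrays, with SAMR1 replicate 5 apart at 2746. Without that array no gene-level call on an enzyme was made or lost. Some small log2 differences then changed sign. These were sedentary SAMP8 minus SAMR1 for Pgk1 (-0.012), Pkm (0.0098) and Ldha (-0.016), and exercised SAMP8 minus SAMR1 for Pfkp (0.021). Further values without that array are given with some of the genes below. Of the 10 enzymes, 9 gave signal far above that median on every array. Gapdh did not, which goes against its known abundance. Its only feature read 81.1, 79.8, 62.3, 70.7 and 61.9 in exercised SAMP8, 66.9, 56.7, 92.5, 75.6 and 66.4 in sedentary SAMP8, and 31.9, 61.5, 70.6, 58.1 and 75.5 in sedentary SAMR1. All 3 groups overlapped, and the lowest SAMR1 array lay under the intensity floor of 39.17. Whether this feature reads the main Gapdh transcript was not tested. Counts over the 10 enzymes below include it. Aldoa was at the other end of the scale. Its feature read between 57318.2 and 65470.8, and on 10 of 15 arrays it was over 99% of the highest intensity deposited (65480). At that ceiling a rise could not be measured.

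The first question was whether the lines differ. No enzyme was called between sedentary SAMP8 and sedentary SAMR1 (0 of 10), where 2.63% of all genes were called. A call is an adjusted p under 0.05 in limma's moderated test, Benjamini-Hochberg adjusted over the 16401 genes. A fit of these groups alone called 648 genes with the replicate number as a block and 437 without it (431 in the fit of all arrays), and still 0 of 10 enzymes. At an unadjusted p under 0.05 there was 1 enzyme, Hk1, against 11.2% of all genes. No enzyme had groups that did not overlap (0 of 10, against 4.19% of all genes). The median log2 difference over the 10 was 0.01 and that over all genes 0.00287, with 6 of 10 above 0 against 51% of all genes. The standard errors ran from 0.07 to 0.16. No 95% confidence interval reached beyond a 1.51-fold difference.

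The second question was whether exercise changed them within SAMP8, a comparison that uses the same sedentary SAMP8 arrays. No enzyme was called between exercised and sedentary SAMP8 (0 of 10). This comparison called 0% of all genes with limma, and 3.49% had an unadjusted p under 0.05, among them 0 of the 10 enzymes. Groups lay apart in 0.439% of all genes and in 0 of 10 enzymes. All 10 estimates were above 0, where 54% of all genes were, but that of Gapdh was only 7.33e-05 and none exceeded 0.16 on the log2 scale. The median was 0.06 against 0.01 over all genes. The widest confidence interval ended at a 1.27-fold difference.

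Exercised SAMP8 against sedentary SAMR1 combines line and exercise and shares its arrays with both other comparisons. It called 0 of 10 enzymes, where 3.6% of all genes were called. At an unadjusted p under 0.05 there were 2 enzymes, Hk1 and Pfkm, against 15.9% of all genes. The same 2 were the only ones whose groups did not overlap, where 4.9% of all genes had groups apart. A test for any difference among the 3 groups called 0 of 10 enzymes and 2.96% of all genes, and Hk1 had the lowest adjusted p of the 10 (0.148, limma's moderated F test).

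With each of the 30 enzyme features tested by itself over 34479 features, 0 were called between sedentary SAMP8 and SAMR1, against 2.26% of all features, and 3 had an unadjusted p under 0.05, against 10.7%. Between exercised and sedentary SAMP8, 0 were called, as were 0% of all features, and 1 had an unadjusted p under 0.05, against 3.46%. Between exercised SAMP8 and SAMR1, 1 was called, against 3.25% of all features, and 6 had an unadjusted p under 0.05, against 15.2%. Groups lay apart for 0, 0 and 4 of the 30 features in these 3 comparisons, against 3.93%, 0.403% and 4.62% of all features. The test for any difference among the 3 groups called 1 of 30, against 2.69%. The 1 called feature was of Pfkp both times.

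**Figure D1:**
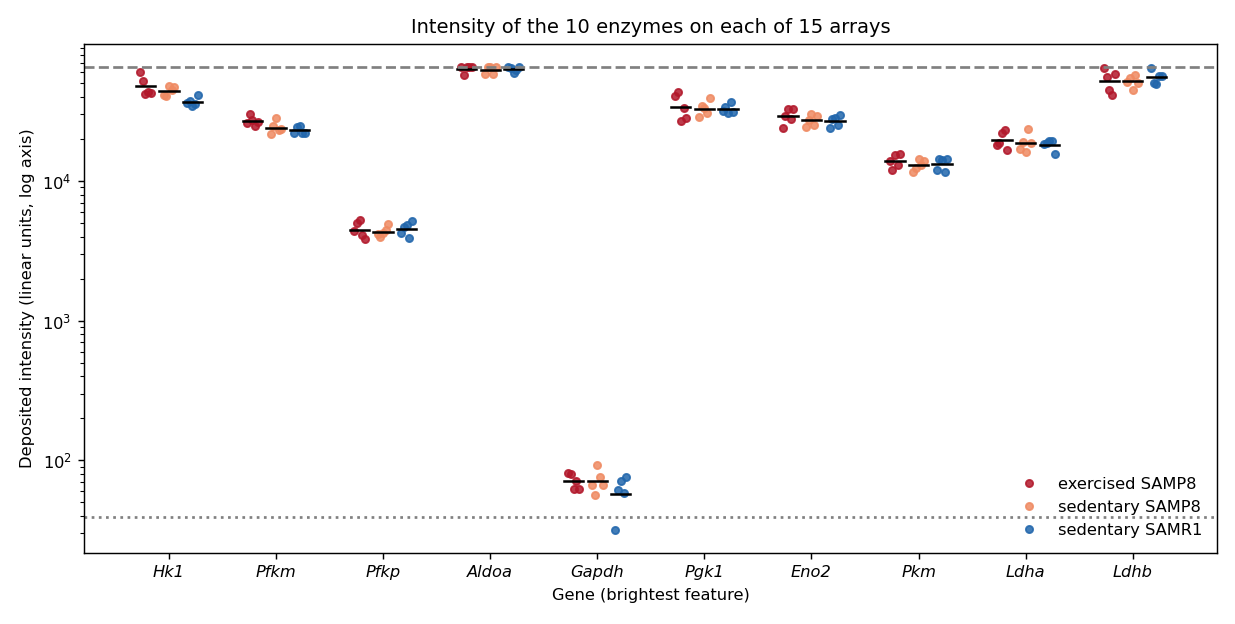
Deposited intensity (log axis, linear units) of the brightest feature of each enzyme on each of the 15 arrays, with exercised SAMP8, sedentary SAMP8 and sedentary SAMR1 from left to right; bars are group means on the log scale, the dashed line is the highest intensity deposited (65480) and the dotted line the floor (39.17). For Hk1 every exercised SAMP8 array lies above every SAMR1 array, while exercised and sedentary SAMP8 overlap. Aldoa lies at the upper line and Gapdh near the lower one.

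Hk1 encodes the hexokinase that predominates in brain. Its brightest feature (21622) read 60766.8, 52239.6, 42100.8, 43620.3 and 42481.9 in exercised SAMP8, 41643.3, 40886.4, 48221.1, 44976.5 and 46819.7 in sedentary SAMP8, and 36324.5, 37351.9, 34738.5, 35680.7 and 41545.1 in sedentary SAMR1. Every exercised array was above every SAMR1 array, and 4 of 5 sedentary SAMP8 arrays were too. Sedentary SAMP8 was 1.20-fold of SAMR1, a log2 difference of 0.26 ± 0.10 (SE) that did not pass (limma, unadjusted p = 0.0222, adjusted p = 0.302). Exercised SAMP8 was 1.29-fold of SAMR1 (log2 0.37 ± 0.10, 95% interval 0.15 to 0.58), with an adjusted p = 0.0641 in limma. The exercised group also held the widest spread, an SD of 0.23 log2 units against 0.10 in SAMR1, and its replicates 1 and 2 were the highest. Exercised and sedentary SAMP8 differed by 0.10 ± 0.10 (adjusted p = 1), and by 0.02 without exercised replicate 1. Without SAMR1 replicate 5 the difference between exercised SAMP8 and SAMR1 was 0.41 (limma, adjusted p = 0.0544).

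The call on Hk1 depended on the setting. Leaving out exercised replicate 3 gave an adjusted p = 0.0478 in limma, and leaving out the dimmest 40% of genes gave 0.0424, while the range over all 26 alternatives was 0.0373 to 0.18. Hk1 has 4 further features with values. Features 32372, 8493 and 19132 differed by 0.25, 0.23 and 0.36 between exercised SAMP8 and SAMR1, in the direction of the brightest one, and none was called (limma, adjusted p = 0.324, 0.503 and 0.148). Between sedentary SAMP8 and SAMR1 the same 3 differed by 0.05, 0.01 and 0.10, less than the 0.26 of the brightest. Between exercised and sedentary SAMP8 these 3 differed by 0.20, 0.23 and 0.26, more than the 0.10 of the brightest, and none was called. The dimmest feature, 5175, differed by -0.05 in exercised SAMP8 and by -0.09 in sedentary SAMP8 against SAMR1. Between exercised and sedentary SAMP8 it differed by 0.04.

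Phosphofructokinase is the committed step, with Pfkm the muscle-type and Pfkp the platelet-type gene, both active in brain. Pfkm read 26012.7, 30416.3, 27476.9, 24988.1 and 26657.2 in exercised SAMP8, 21659.6, 24613.0, 28189.0, 23195.9 and 23749.6 in sedentary SAMP8, and 22162.4, 24424.4, 24715.2, 22084.9 and 22235.2 in sedentary SAMR1. Every exercised array exceeded every SAMR1 array, while sedentary SAMP8 overlapped with both. Pfkm was 1.17-fold of SAMR1 in exercised SAMP8 (log2 0.23 ± 0.08; limma, adjusted p = 0.174). With each enzyme read by its brightest feature, it had the largest estimate of the 10 for exercise within SAMP8. This was 0.16 ± 0.08, which did not pass (unadjusted p = 0.0718, adjusted p = 1, limma).

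Pfkp gave different answers by feature. The brightest, 24470, read 4402.1, 4973.6, 5283.0, 4132.8 and 3823.0 in exercised SAMP8, 4176.2, 3953.4, 4213.1, 4467.4 and 4893.6 in sedentary SAMP8, and 4251.5, 4692.1, 4880.0, 3941.2 and 5207.6 in sedentary SAMR1. All groups overlapped, and the differences were -0.08 ± 0.10 for sedentary SAMP8 against SAMR1 and -0.03 ± 0.10 for exercised SAMP8 against SAMR1. Feature 12682, listed under the same Pfkp transcript, read 1412.7, 1658.6, 1697.9, 1515.1 and 1465.5 in exercised SAMP8, 1072.2, 1284.5, 1342.6, 1497.1 and 1339.2 in sedentary SAMP8, and 1031.3, 996.4, 873.1, 1034.8 and 1205.9 in sedentary SAMR1. Here every exercised array was above every SAMR1 array. This was the 1 called feature of the 30, with a log2 difference of 0.60 ± 0.10 (limma, adjusted p = 0.00262), and the share of enzyme features called was near that of all features.

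Feature 12682 was 0.35 ± 0.10 higher in sedentary SAMP8 than in SAMR1, which missed the threshold (limma, unadjusted p = 0.00402, adjusted p = 0.122). Without sedentary SAMP8 replicate 1 it passed, with an adjusted p = 0.0449 in limma. It was 0.25 ± 0.10 higher in exercised than in sedentary SAMP8 (unadjusted p = 0.0271, adjusted p = 1, limma). A fit of exercised SAMP8 and SAMR1 arrays alone, blocked by replicate number, gave an adjusted p = 0.055 for 12682 in limma, and the same fit without the block kept the call. Without SAMR1 replicate 5 the difference between exercised SAMP8 and SAMR1 was 0.66 (adjusted p = 0.00159). The remaining feature, 18483, spread between 376.9 and 1626.2, and its differences of 0.42 ± 0.34 and 0.27 ± 0.34 against SAMR1 did not pass.

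Pkm, the pyruvate kinase of brain and muscle that makes pyruvate and ATP, showed a like split between its 2 bright features. Feature 29580 read 13913.1, 12005.6, 15357.8, 13110.5 and 15591.0 in exercised SAMP8, 11674.6, 12436.5, 14488.2, 13061.9 and 13984.9 in sedentary SAMP8, and 11926.3, 14488.2, 14263.0, 11593.3 and 14423.5 in sedentary SAMR1, with all groups overlapping. Feature 44663 read 16270.5, 12455.6, 12425.5, 13155.0 and 15992.5 in exercised SAMP8, 13490.8, 11664.3, 13282.9, 11644.2 and 11808.5 in sedentary SAMP8, and 7888.3, 10130.7, 11936.2, 10397.9 and 11771.0 in sedentary SAMR1. Every exercised array exceeded every SAMR1 array, by the narrow gap between 12425.5 and 11936.2. The log2 difference between exercised SAMP8 and SAMR1 was 0.44 ± 0.12 for 44663 (limma, adjusted p = 0.0571) and 0.07 ± 0.10 for 29580 (adjusted p = 0.822). For 44663 it passed without SAMR1 replicate 3 or 5 (limma, adjusted p = 0.0482 and 0.0496). Pkm is known to make several isoforms by alternative splicing. The 2 features are listed under different transcripts, and which isoform each reads was not analysed here. A dim feature, 27109, differed by 0.21 ± 0.19.

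**Figure D2:**
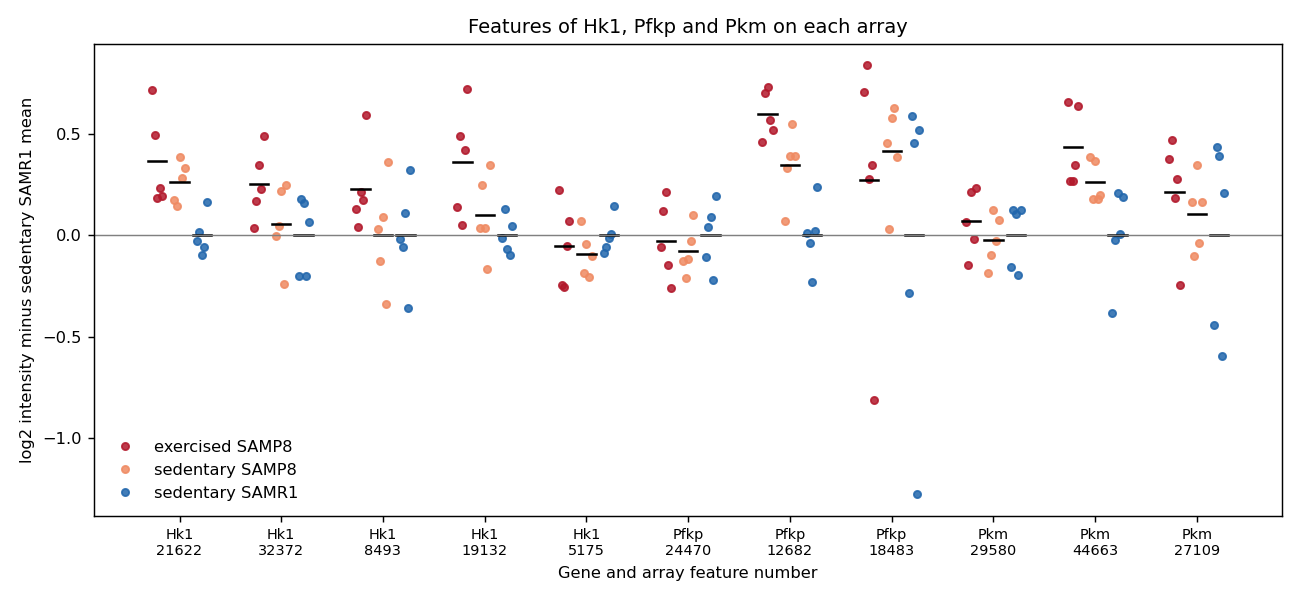
Log2 intensity of every feature of Hk1, Pfkp and Pkm on each array, as the difference from that feature's sedentary SAMR1 mean (vertical axis), with exercised SAMP8, sedentary SAMP8 and sedentary SAMR1 from left to right and bars at the group means. Pfkp 12682 and Pkm 44663 lie above 0 on all 10 SAMP8 arrays, while Pfkp 24470 and Pkm 29580 straddle 0.

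The split was measured within each array as the log2 difference between the features of a pair. These tests were added after the values had been seen. For Pfkp, 12682 minus 24470 was higher by 0.62 in exercised SAMP8 and by 0.42 in sedentary SAMP8 than in SAMR1 (exact two-sided permutation test, p = 0.00794 and p = 0.0159). For Pkm, 44663 minus 29580 was higher by 0.37 in exercised SAMP8 and by 0.28 in sedentary SAMP8 (exact permutation p = 0.0317 and p = 0.0238). After Benjamini-Hochberg adjustment over 15 such tests each of these 4 stood at 0.0952, so none passed, and 0.00794 is the smallest p that 252 splits of 10 arrays allow. The same measure gave 0.25 for Pfkm minus Pfkp between exercised SAMP8 and SAMR1 (exact permutation p = 0.0317, adjusted 0.0952). The permutations ignore the replicate numbers, which pair the sedentary arrays.

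No feature of Pgk1 was called in any comparison. The gene, which makes the first ATP of glycolysis, is covered by 11 features, which read 1 gene and are no replicates of each other. Their log2 differences ran from -0.09 to 0.02 for sedentary SAMP8 against SAMR1, from -0.01 to 0.11 for exercised against sedentary SAMP8, and from -0.03 to 0.04 for exercised SAMP8 against SAMR1. The brightest, 20018, read 40987.0, 43105.4, 26938.1, 33208.9 and 28122.3 in exercised SAMP8, 28676.8, 34485.5, 33208.9, 30525.7 and 39243.0 in sedentary SAMP8, and 31794.4, 33780.1, 30956.0, 37050.0 and 31303.4 in sedentary SAMR1. The exercised arrays spanned the whole range of the other groups and beyond, with an SD of 0.31 log2 units against 0.17 in sedentary SAMP8 and 0.11 in SAMR1.

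Eno2, the enolase of neurons, read between 24036.4 and 33001.3 on its brighter feature. The differences were 0.02 ± 0.10 for sedentary SAMP8 against SAMR1 and 0.10 ± 0.10 for exercised against sedentary SAMP8, and neither passed (limma, adjusted p = 0.983 and 1). The dimmer Eno2 feature, 33228, differed by 0.07 ± 0.09 and 0.08 ± 0.09 in these comparisons and was not called. Aldoa, the aldolase of muscle and brain, differed by -0.02 ± 0.07 and 0.02 ± 0.07 in the same comparisons, with the ceiling named above. The exercised Aldoa value of replicate 2 was the lowest of all 15, at 57318.2.

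Neither lactate dehydrogenase gene was called in any comparison. Ldha read 18128.9, 18712.0, 22197.6, 23234.9 and 16745.0 in exercised SAMP8, 16979.2, 19105.8, 16216.1, 23658.9 and 18633.7 in sedentary SAMP8, and 18401.8, 18607.7, 19441.8, 19441.8 and 15518.4 in sedentary SAMR1. The groups overlapped on this feature, the brighter one (39946), and SAMR1 replicate 5 was the lowest of the 15 arrays. On the dimmer feature, 5536, that array read 11413.0 and the lowest was exercised replicate 5 at 9889.4. Feature 39946 differed by 0.04 ± 0.12 for sedentary SAMP8 against SAMR1, 0.07 ± 0.12 for exercised against sedentary SAMP8 and 0.11 ± 0.12 for exercised SAMP8 against SAMR1. Feature 5536 differed by 0.05 ± 0.11, 0.05 ± 0.11 and 0.10 ± 0.11 in the same order and was not called. Ldhb read 64320.3, 55866.3, 45095.2, 41434.2 and 58068.1 in exercised SAMP8, 51609.2, 55143.3, 45095.2, 57635.7 and 50282.4 in sedentary SAMP8, and 64528.2, 50443.5, 49454.3, 56240.7 and 56750.6 in sedentary SAMR1. The highest exercised array, 64320.3, lay above 4 of 5 SAMR1 arrays and the lowest, 41434.2, below all of them, so the groups overlapped here too. Ldhb differed by -0.09 ± 0.12, 0.01 ± 0.12 and -0.08 ± 0.12 in the 3 comparisons.

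The balance of the 2 subunits decides the make-up of the enzyme's tetramers, so Ldha minus Ldhb was compared within arrays. It was higher by 0.13 in sedentary SAMP8 than in SAMR1, by 0.05 in exercised than in sedentary SAMP8, and by 0.19 in exercised SAMP8 than in SAMR1. None passed (exact two-sided permutation test, p = 0.286, 0.794 and 0.437). Without SAMR1 replicate 5 the differences from SAMR1 were 0.067 in sedentary SAMP8 and 0.12 in exercised SAMP8. In intensity terms the 95% intervals of the single genes between exercised and sedentary SAMP8 ran from 0.88-fold to 1.24-fold for Ldha and from 0.85-fold to 1.20-fold for Ldhb.

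**Figure D3:**
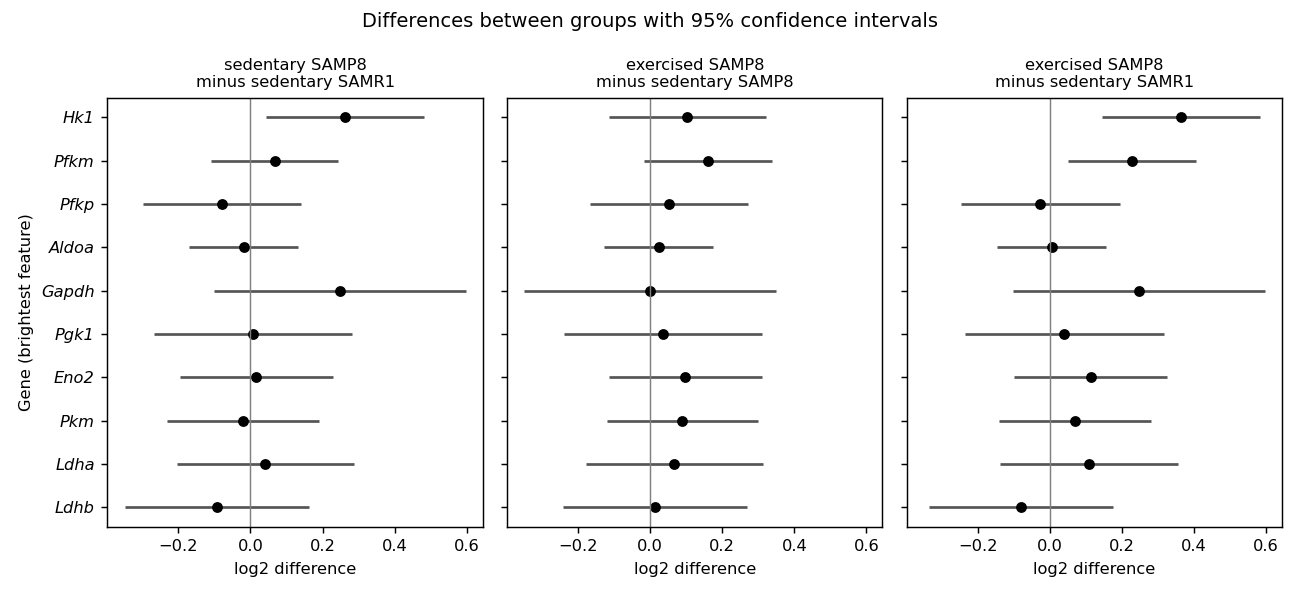
Log2 difference of each enzyme's brightest feature (points) with its 95% confidence interval (lines) in the 3 comparisons, each named above its panel. Intervals exclude 0 before adjustment for Hk1 in the panels against SAMR1 and for Pfkm in the right panel; all other intervals cross 0.

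The enzymes did not move as 1 unit across the 15 arrays. As a description, the Pearson r of each enzyme with the mean of the other 9 ran from -0.319 (Ldhb) to 0.665 (Hk1), with group differences included. Averaged over the 10 enzymes as deviations from each gene's own mean, exercised replicates 1 and 2 stood at 0.13 and 0.12, against 0.06 for the highest sedentary SAMP8 array and 0.02 for the highest SAMR1 array. The lowest were sedentary SAMP8 replicate 1 at -0.12 and SAMR1 replicate 1 at -0.14. Gapdh, near the floor, is part of these means and correlations. It had the largest SD within groups of the 10 enzymes, 0.283 log2 units, and lay under the floor on SAMR1 replicate 1. Values without Gapdh were not calculated. The genes most like the enzymes' mean over the 15 arrays were Med24 (r = 0.939), Phtf1 (r = 0.882), Plxna4 (r = 0.867), Pcsk5 (r = 0.865) and Slc1a1 (r = 0.861), a list picked as the highest of all genes.

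Of the other glycolytic enzymes, 16 of 22 listed genes were measured and 0 were called in each of the 3 comparisons. Between sedentary SAMP8 and SAMR1 the lowest p values belonged to Eno4 (0.51, adjusted p = 0.0802), the brain aldolase Aldoc (0.29, adjusted p = 0.22) and the sperm-type Gapdhs (-0.30, adjusted p = 0.393), all from limma. For exercised against sedentary SAMP8 they belonged to the liver-type phosphofructokinase Pfkl (0.27), Pgk2 (0.27) and Hkdc1 (0.39), each with an adjusted p = 1 in limma. Pgk2, Eno4 and Gapdhs lay near the floor, and their brightest features were under it on 5, 1 and 1 of the 15 arrays. The brighter Aldoc feature read up to 65464.1, near the ceiling. Between sedentary SAMP8 and SAMR1 the other Aldoc feature differed by -0.01. The 11 Gapdhs features ran there from -0.30 to 0.24, with 7 above 0. The list's medians were 0.02, 0.07 and 0.12 for sedentary SAMP8 against SAMR1, exercised against sedentary SAMP8, and exercised SAMP8 against SAMR1.

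Regulators of glycolytic flux numbered 15 measured of 16. None passed for sedentary SAMP8 against SAMR1, where Tigar, a phosphatase that restrains glycolysis, was nearest by its brighter feature (0.37, limma, adjusted p = 0.0601), followed by Egln1, the oxygen-sensing prolyl hydroxylase (0.28, adjusted p = 0.16) and Myc (0.27, adjusted p = 0.394). None passed for exercised against sedentary SAMP8, with Pfkfb2 at 0.20, Egln1 at -0.19 and Myc at 0.21 (adjusted p = 1 for each in limma). The second Tigar feature, 23696, was called by itself, with 0.69 ± 0.12 in sedentary SAMP8 and 0.75 ± 0.12 in exercised SAMP8 against SAMR1 (limma over all features, adjusted p = 0.00263 and 0.0011). Between exercised SAMP8 and SAMR1, 2 of 15 were higher and 0 lower, against 1.75% and 1.85% of all genes. These were Myc, a transcription factor that drives glycolytic genes (0.48, adjusted p = 0.0321), and Pfkfb2, a bifunctional enzyme that sets the activator of phosphofructokinase (0.36, adjusted p = 0.0491). Both were named after their values had been seen. The call on Myc needed SAMR1 replicates 1, 3, 4 and 5 and exercised replicates 2 and 5, and over 25 alternatives its adjusted p ran up to 0.0843 (limma). Pfkfb2 kept its call without SAMR1 replicate 2 or 3, sedentary SAMP8 replicate 1 or exercised replicate 1 and lost it without each other array, with an adjusted p up to 0.602 over 26 alternatives (limma). The other 3 features of Pfkfb2 differed by 0.25, 0.09 and -0.20 in that comparison and were not called. With the mean of all its features Pfkfb2 differed by 0.12 (limma, adjusted p = 0.602). Of the 12 Myc features 11 were above 0 there and 1 was called.

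Of 9 listed carriers of lactate and pyruvate, 7 were measured. Between sedentary SAMP8 and SAMR1 1 was higher and 1 lower, where 1.46% and 1.16% of all genes were. Slc16a7 encodes the high-affinity lactate and pyruvate transporter of neurons. Its brighter feature (33743) read 431.6, 369.0, 369.2, 391.8 and 315.0 in exercised SAMP8, 333.9, 354.7, 359.2, 309.7 and 338.5 in sedentary SAMP8, and 246.6, 236.5, 225.9, 256.1 and 270.7 in sedentary SAMR1. All 10 SAMP8 arrays lay above all SAMR1 arrays. It rose 1.37-fold in sedentary SAMP8 (log2 0.46 ± 0.09; limma, adjusted p = 0.00601) and 1.51-fold in exercised SAMP8 (0.60 ± 0.09, adjusted p = 0.000495) over SAMR1. Exercised and sedentary SAMP8 differed by 0.14 ± 0.09 (adjusted p = 1).

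The second Slc16a7 feature, 25167, is dim and pointed the other way, with -0.42 ± 0.16 in sedentary SAMP8 and -0.52 ± 0.16 in exercised SAMP8 against SAMR1 (limma, adjusted p = 0.296 and 0.0933). With the mean of both features in place of the brighter one, the differences were 0.02 and 0.04 and the calls were lost (adjusted p = 0.977 and 0.9). The call on Slc16a7 is therefore a call on 1 feature. Without SAMR1 replicate 5 the brighter feature gave 0.49 and 0.63 (limma, adjusted p = 0.00634 and 0.00067).

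Emb encodes embigin, a membrane glycoprotein that accompanies monocarboxylate transporters to the cell surface. Its brighter feature (30136) read 694.3, 611.2, 735.5, 699.1 and 901.8 in exercised SAMP8, 867.3, 897.0, 629.7, 835.3 and 784.2 in sedentary SAMP8, and 2429.1, 2205.9, 1816.0, 2222.4 and 1628.6 in sedentary SAMR1. The lowest SAMR1 array was above every SAMP8 array. Emb fell in sedentary SAMP8 to 0.39-fold of SAMR1 (log2 -1.36 ± 0.13; limma, adjusted p = 5.48e-06) and in exercised SAMP8 to 0.35-fold (-1.50 ± 0.13, adjusted p = 1.8e-06). Its second feature, 25511, gave -0.33 ± 0.15 and -0.49 ± 0.15, not called (adjusted p = 0.454 and 0.11). Without SAMR1 replicate 5 the brighter feature gave -1.44 and -1.58 (limma, adjusted p = 5.01e-06 and 1.68e-06). Exercised and sedentary SAMP8 differed by -0.14 ± 0.13 (adjusted p = 1).

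**Figure D4:**
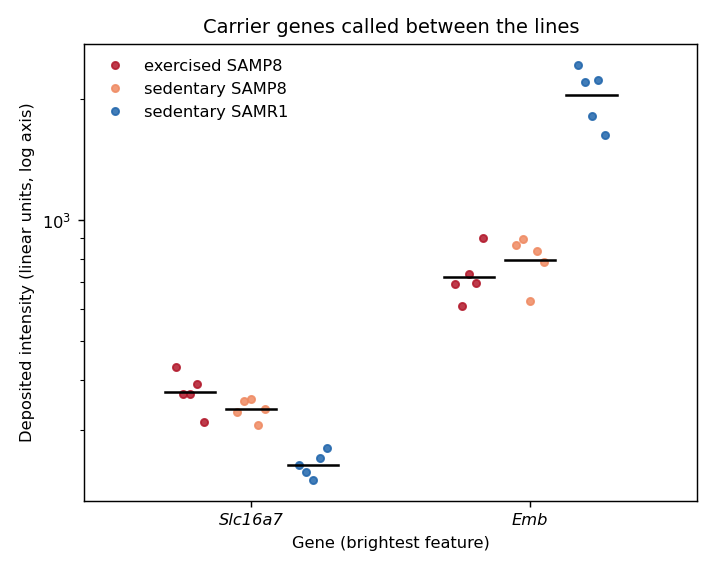
Deposited intensity (log axis, linear units) of the brighter features of Slc16a7 and Emb on each array, with exercised SAMP8, sedentary SAMP8 and sedentary SAMR1 from left to right and bars at the group means on the log scale. The SAMP8 arrays of Slc16a7 lie between 309.7 and 431.6, above the SAMR1 arrays, and those of Emb between 611.2 and 901.8, below them.

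The remaining carriers did not pass. Slc16a1, the transporter of endothelium and glia, differed by 0.28 between sedentary SAMP8 and SAMR1 (limma, adjusted p = 0.516). Basigin (Bsg), the other transporter partner, differed by -0.09 and the mitochondrial pyruvate carrier subunit Mpc1 by -0.13. Slc16a8, a transporter of retinal and choroid plexus epithelium, differed by -0.98 (adjusted p = 0.249). The summed intensity of 9 choroid plexus markers ran from 1713 to 18139 in exercised SAMP8, from 2490 to 18314 in sedentary SAMP8 and from 5612 to 18164 in SAMR1, with 0 of 9 called and a median difference of -0.77 between sedentary SAMP8 and SAMR1. The part of this tissue in the Slc16a8 difference was not tested. In whole tissue, fewer cells of a type and less RNA per cell cannot be told apart.

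The lists for the branches around the pathway had no called gene in any of the 3 comparisons. This held for 12 genes of the pyruvate dehydrogenase complex and its kinases, 10 of the redox shuttles, 7 of the pentose phosphate pathway, 10 of glycogen metabolism and 12 induced by hypoxia. The glycogen list does not hold Gys2, which is given below. Between sedentary SAMP8 and SAMR1 the nearest were the glycerol phosphate dehydrogenase Gpd1 (0.36, limma, adjusted p = 0.276), the collagen prolyl hydroxylase P4ha2 (0.29, adjusted p = 0.342), the lactonase Pgls (-0.27, adjusted p = 0.401) and the kinase Pdk3, which switches off pyruvate dehydrogenase (-0.24, adjusted p = 0.444). Of the listed glycogen genes the lowest p values belonged to Ppp1r3c at -0.14, Pgm1 at -0.08 and Gbe1 at 0.06. For exercised against sedentary SAMP8 the transketolase Tkt differed by -0.25, Adm by 0.20, Ndrg1 by -0.25, Ddit4 by -0.34 and Pdk1 by 0.18 (adjusted p = 1 for each in limma).

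Genes beside Ldhb, Pfkp, Slc16a7 and Emb on the chromosome, the nearest 3 tested on either side, were read after their values had been seen. Of these neighbours only Gys2, Kcnj8, Pitrm1 and Parp8 were called between sedentary SAMP8 and SAMR1, where 2.63% of all genes were. No neighbour of Slc16a7 was called. Ldhb, which was not called, has as nearest tested neighbours Gys2, the liver-type glycogen synthase, and Kcnj8, a potassium channel of pericytes, in the gene order of GRCm38.p6. Both neighbours were higher in sedentary SAMP8 than in SAMR1 (0.52, limma, adjusted p = 0.0245, and 0.43, adjusted p = 0.0321). In exercised SAMP8 against SAMR1 Gys2 was higher by 0.65 (adjusted p = 0.00455), while Kcnj8 differed by 0.34 and did not pass (adjusted p = 0.0899). Both Gys2 calls were lost with the floor at the 20th percentile. The differences from SAMR1 were then 0.10 in sedentary SAMP8 and 0.22 in exercised SAMP8 (limma, adjusted p = 0.842 and 0.305). The Gys2 call in sedentary SAMP8 also needed SAMR1 replicates 2, 3 and 5 and sedentary SAMP8 replicates 2 and 3. Its adjusted p was at most 0.0732 in limma when 1 of them was left out. Pitrm1, a mitochondrial peptidase gene next to Pfkp, was higher by 0.63 in sedentary SAMP8 and by 0.67 in exercised SAMP8 than in SAMR1 (limma, adjusted p = 0.00341 and 0.00173). Parp8, next to Emb, was lower by 0.64 in sedentary SAMP8 and by 0.58 in exercised SAMP8 than in SAMR1 (limma, adjusted p = 0.00675 and 0.0139).

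Several cell type markers differed between the same groups. Of all genes, 1.46% were called higher in sedentary SAMP8 than in SAMR1. Between exercised SAMP8 and SAMR1, 1.75% were called higher and 1.85% lower. Between sedentary SAMP8 and SAMR1, 3 of 7 pericyte and smooth muscle markers and 4 of 10 markers of meninges and fibroblasts were higher, with summed intensities of 11752 to 15915 in sedentary SAMP8 against 7050 to 11663 in SAMR1, and of 16662 to 30283 in sedentary SAMP8 against 8516 to 20574 in SAMR1. Between exercised SAMP8 and SAMR1, 3 of 7 oligodendrocyte markers were lower (Mbp, Mog and Ermn), with summed intensities of 52516 to 74531 in exercised SAMP8 against 76719 to 93813 in SAMR1. In that comparison 2 of 7 pericyte markers and 2 of 10 hippocampal neuron markers (Spink8 and C1ql2) were higher. Called there were 0 of 8 pan-neuronal, 0 of 7 astrocyte and 0 of 10 meninges and fibroblast markers. No marker was called between exercised and sedentary SAMP8. No gene was called there, so this does not show a like make-up of the tissue. Above 0 were 0 of 10 meninges and fibroblast markers (median -0.60), 0 of 6 thalamus (-0.27) and 0 of 7 astrocyte markers (-0.10). Of all genes 54% were above 0, as were 5 of 8 pan-neuronal and 6 of 10 hippocampal neuron markers. No marker of these lists was at the floor on all arrays. Their part in the values of Hk1, Pfkp, Pkm, Slc16a7 and Emb was not tested.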

How the data were processed

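Total RNA of whole hippocampus was Cy3-labelled for 1-colour arrays, per the labels' protocols. The deposited intensity values are linear, from 4.02 to 65480, and the authors used limma per the submitters' processing notes. Quantile normalization is read from the values. No source used here gives the scanner, background step, limma version or probe filter. Of 45220 rows, 10741 (23.8%) were empty and 34479 had values. The platform annotation gave 27968 of these 1 symbol, 38 several and 6473 none.

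Intensities under the 5th percentile (39.17) were raised to it before log2. The feature with the highest mean stood for each of 16401 genes, and each of the 34479 features was also tested by itself. limma 3.58.1 in R 4.3.3 fitted 1 term per group over all 15 arrays (lmFit, eBayes, two-sided), with Benjamini-Hochberg adjustment and calls under 0.05. ± values are the fit's standard errors, and the number of arrays limits the precision. The code was checked on simulated data, where 50 of 100 genes shifted by 0.5 log2 units and 91 of 100 shifted by 1 were called, with 6 false calls. A shift of 0.5 or less can thus go uncalled, and at times so can a shift of 1. The simulation covered only sedentary SAMP8 against SAMR1, with noise drawn for each gene independently. Up to 26 alternative settings were run per result. Within-array feature differences were compared by exact permutation over all 252 splits of 10 arrays.

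The members and lists were chosen with earlier results of these data known. Named genes are all members with their features, of each list the called genes and otherwise up to 3 with the lowest p in each of the first 2 comparisons, and the 5 genes most like the members' mean. Exceptions are marked as named after their values were seen. The labels give replicate numbers 1 to 5 in each group. Deviations from the group mean correlated in 5 of 5 same-numbered pairs of sedentary SAMP8 and SAMR1 arrays (0.27, 0.23, 0.38, 0.52 and 0.42), so these numbers pair the arrays by the data and not by any label. Exercised arrays gave 0.02, 0.05, -0.0982, 0.35 and 0.00162 with sedentary SAMP8 and were not taken as paired.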

Additional observations from a re-analysis of the deposited data

Results flagged for a closer look

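In 90 sets of 5 arrays, 1 per feature and group, 3 held an array whose gap to its nearest neighbour exceeded Dixon's 95% limit, where chance flags about 5%. Aldoa feature 36252 read 57318.2 in exercised SAMP8 replicate 2, while the other exercised arrays read 65113.6 to 65463.6, close to the highest intensity deposited. Ldha feature 39946 read 15518.4 in SAMR1 replicate 5, while the other SAMR1 arrays read 18401.8 to 19441.8. Pgk1 feature 15572 read 26888.1 in the same SAMR1 array, against 28432.9 to 28808.7 on the others.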

How the results depend on the processing

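The 30 differences of the enzymes gave 777 values over up to 26 alternative settings, of which 50 changed sign and 4, all of Hk1 between exercised SAMP8 and SAMR1, were called. With the mean of all probes, sedentary SAMP8 minus SAMR1 was 0.23 for Pfkp, -0.042 for Pgk1, 0.12 for Pkm and -0.021 for Pfkfb2, and exercised SAMP8 minus SAMR1 was 0.28 for Pfkp. Array weights gave 0.00703 for Aldoa (sedentary SAMP8 minus SAMR1) and -0.015 for Ldhb (exercised minus sedentary SAMP8). The floor at the 20th percentile gave -0.019 for Gapdh (exercised minus sedentary SAMP8).

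Leaving out each array in turn, sedentary SAMP8 minus SAMR1 ran from -0.043 to 0.00539 for Aldoa, -0.056 to 0.057 for Pgk1, -0.023 to 0.056 for Eno2, -0.069 to 0.021 for Pkm and -0.042 to 0.094 for Ldha. Exercised minus sedentary SAMP8 ran from -0.00552 to 0.11 for Pfkp, -0.079 to 0.097 for Gapdh, -0.052 to 0.12 for Pgk1, -0.061 to 0.097 for Ldhb and -0.017 to 0.11 for Pitrm1. Exercised SAMP8 minus SAMR1 ran from -0.084 to 0.032 for Pfkp, -0.018 to 0.044 for Aldoa, -0.046 to 0.12 for Pgk1 and -0.15 to 0.00410 for Ldhb. Without changing sign, exercised minus sedentary SAMP8 ran from 0.017 to 0.15 for Hk1 and from 0.0070 to 0.15 for Ldha, and Gapdh from 0.097 to 0.33 in sedentary SAMP8 minus SAMR1. Within arrays, the Hk1 pair (21622 minus 32372) ran from -0.24 to 0.00531 for exercised minus sedentary SAMP8 and from -0.029 to 0.21 for exercised SAMP8 minus SAMR1, and Ldha minus Ldhb from -0.090 to 0.16 for exercised minus sedentary SAMP8.

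The count of enzymes called between exercised SAMP8 and SAMR1 was 1, Hk1, with the dimmest 40% of genes left out, with a variance trend and robust prior, with array weights, and without exercised replicate 3 (0 to 1 over the arrays left out). The count of enzyme features called there was 3 with the dimmest 40% left out and with the variance trend, and 1 to 2 over the arrays left out. Between sedentary SAMP8 and SAMR1 it was 1 with array weights and 0 to 1 over the arrays left out. All genes called between exercised and sedentary SAMP8 numbered 0 to 1 over the arrays left out, with the 1 found without exercised replicate 3. With only the groups compared, 648 genes were called between sedentary SAMP8 and SAMR1 with a replicate block and 437 without it (431 with all arrays). Between exercised SAMP8 and SAMR1 there were 323 with the block and 461 without it (590 with all arrays), and 0 and 1 enzyme features. The block changed no call on the 10 enzymes, Slc16a7 or Emb. The cause of these moves was not tested. Signal limits Gapdh, Pgk2, Eno4 and Gapdhs, near the floor, and near the ceiling Aldoa and the brightest arrays of Ldhb (up to 64528.2) and Aldoc (up to 65464.1).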
